A study of Mus musculus with 9 samples.

Results

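Messenger RNA was sequenced from livers labelled KO with CCl4 and compared with that from livers labelled WT with the treatment NC, 3 samples against 3. These 6 samples were taken by their genotype and treatment labels from the 9 of the series, and the 3 samples labelled WT with CCl4 are given beside them. All 9 came from 12-week-old mice of the strain C57BL/6, with liver as the tissue and hepatocyte as the cell type. The labels' WT was read as the Tgfbr2f/f animals of the protocol, in which the Tgfbr2 gene is floxed, and KO as its Tgfbr2HKO animals. Carbon tetrachloride (CCl4) in olive oil was given into the peritoneum at 0.25 ml per kg, 2 times a week over 4 weeks. The sources used here do not say how the HKO allele was made, in which cells it acts or what the NC animals received. KO livers without CCl4 were not analysed here, so genotype and CCl4 differ together in this comparison and cannot be told apart.

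TGF-beta is a secreted signal that binds the receptor Tgfbr2, which recruits and activates a partner receptor, and the complex then phosphorylates SMAD proteins that switch genes on and off in the nucleus. In liver it is known for holding back hepatocyte division and for driving stellate cells to lay down collagen. CCl4 is turned into a reactive radical by cytochrome P450 2E1 in the hepatocytes around the central vein, which kills those cells, and repeated doses are a standard model of scarring. The liver also secretes acute phase proteins in response to inflammatory cytokines, and it follows a daily clock and, in mice, a sex-dependent pattern of growth hormone release. The values below describe how far KO livers after CCl4 stood from WT NC livers in each of these respects.

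The 9 libraries held between 16447353 and 20373585 counts, with between 15932 and 17614 genes detected in each. Mitochondrial genes took 10.5% ± 1.44 of the counts in WT NC, 20.2% ± 0.854 in KO and 25.7% ± 0.493 in WT CCl4 (SD, n = 3 each). The targeted gene Tgfbr2 (chromosome 9, 116087698 to 116175363 in mm10) had 31.5, 30.2 and 38.6 CPM in WT NC, 23.6, 70.0 and 28.3 CPM in KO 72, 75 and 79 and 127, 90.5 and 75.2 CPM in WT CCl4. CPM are a library's counts scaled to a common total with the trimmed mean of M-values (TMM). Tgfbr2 was therefore below every WT NC library in KO 72 and KO 79 and above every one in KO 75. In KO 72, 75 and 79 alike it was below every WT CCl4 library. Whether the library labelled KO 75 follows its label cannot be told from these values, and it is called KO 75 below. Reads over a whole gene need not show the loss of one exon, and in whole liver other cell types also carry Tgfbr2. Its difference in KO against WT NC was 0.28 ± 0.39 on the log2 scale (SE; edgeR, adjusted p = 0.624), and -0.36 without KO 75 (adjusted p = 0.308). On the first principal component of all genes, which held 73.7% of the variance, KO 72 and KO 79 lay between the WT groups and KO 75 lay within the range of WT CCl4. For this reason counts are given again without KO 75 where that moved them by over 1.5 times, and for every list in the plot of list calls. Hepatocyte genes were abundant in every library, Alb with 63420, 78170 and 71680 CPM in WT NC and 71410, 61190 and 59190 CPM in KO 72, 75 and 79, and 4 Y-linked genes were detected in all 9, Ddx3y between 53.7 and 79.7 CPM. Markers of Kupffer cells and endothelium were also present in every library, so the samples held other cells besides hepatocytes.

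Between KO livers after CCl4 and WT NC livers, 3247 of 14134 genes tested differed (23.0%; edgeR quasi-likelihood test, Benjamini-Hochberg adjusted p under 0.05). Of these, 1978 were higher in KO (14.0% of the genes tested) and 1269 lower (8.98%), and 2295 differed by more than 2-fold. The median log2 fold change of all genes tested was 0.04. Counts of list members called in KO against WT NC with all libraries are to be read beside the 14.0% and 8.98%. The libraries of the 2 groups did not overlap for 44.6% of the genes tested. Without KO 75, 2503 of 14469 genes tested were called (17.3%), 1437 higher (9.93%) and 1066 lower (7.37%), and 2200 of the 3247 genes were called in the same direction. KO 75 was the highest of the 3 KO libraries in 1545 of the 1978 higher genes and the lowest in 831 of the 1269 lower genes. The number of calls was 1370, 1264 and 1601 without WT NC 1, 2 or 3 and 2045 without KO 79. Without WT NC 1, 2 or 3, 771 of 14560, 725 of 14578 and 881 of 14499 genes tested were higher, so the counts in lists under these omissions stand beside fewer calls over all genes. A second test gave another balance of directions. Limma, which was run on FPKM with its own filter and so tested other genes, called 1711 genes on log2(FPKM + 1), 696 higher and 1015 lower, and on log2(FPKM + 0.1) 2172, 1117 higher and 1055 lower. For comparison, against the same WT NC libraries 29.5% of the genes tested were higher and 25.0% lower in WT CCl4. Against WT CCl4, 3.46% were higher and 1.61% lower in KO, and the 3 comparisons share libraries. In bulk samples such as these, a loss of cells of a type and a loss of RNA per cell cannot be told apart.

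Most acute phase genes tested rose in KO livers, and most stood above WT CCl4 as well. Of 28 members tested, 16 rose and 1 fell (median log2 fold change 1.15), and 19 rose and 1 fell without KO 75. The count of rises was 10 without WT NC 3, and 2 fell without WT CCl4 11. Summed over the list, the level was 52230, 45750 and 36580 CPM in WT NC and 71510, 44260 and 65360 CPM in KO 72, 75 and 79. KO 75 thus lay within the WT NC range for the sum. The list average of log2 CPM stood 1.82, 1.41 and 1.75 above the WT NC mean in KO 72, 75 and 79. Against WT CCl4, 19 members were higher in KO, where 3.46% of all genes tested were, and 0 lower. In WT CCl4 against WT NC, 7 of the 28 were higher and 9 lower (median -0.32), where 29.5% and 25.0% of all genes tested were. Serum amyloid A1, a lipoprotein-bound protein released by hepatocytes in inflammation, is encoded by Saa1 (chromosome 7, 46740501 to 46742980). Saa1 had 72.5, 47.9 and 50.7 CPM in WT NC, 2035, 1266 and 2107 CPM in KO 72, 75 and 79 and 99.6, 87.4 and 81.5 CPM in WT CCl4. The KO libraries stood apart from all 6 WT libraries, with no overlap. Saa1 was higher in KO than in WT NC by 4.98 ± 0.30 on the log2 scale (SE; edgeR, adjusted p = 6.32e-05), and by 5.18 without KO 75.

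Its neighbour Saa2 had 25.6, 13.2 and 20.1 CPM in WT NC, 2390, 1456 and 1813 CPM in KO 72, 75 and 79 and 72.7, 50.2 and 41.1 CPM in WT CCl4. Saa2 was higher by 6.58 ± 0.40 (SE; edgeR, adjusted p = 6.32e-05), and again no KO library overlapped a WT library. Saa1 and Saa2 are near-identical copies on chromosome 7 that point away from each other, and how reads that fit both were counted is unknown, so the value of each alone is uncertain. Their promoters are shown as those of a near-identical pair: of 299 aligned bases around the start, 287 were the same (96.0%). The windows run from 250 bases before to 50 bases after each gene's start and are from RefSeq (GRCm38.p6), Saa1 on the minus strand at chr7:46742931-46743230 and Saa2 on the plus strand at chr7:46751583-46751882. Capitals in Saa2 mark the 13 bases that differ from Saa1 or have no partner there.
Saa1: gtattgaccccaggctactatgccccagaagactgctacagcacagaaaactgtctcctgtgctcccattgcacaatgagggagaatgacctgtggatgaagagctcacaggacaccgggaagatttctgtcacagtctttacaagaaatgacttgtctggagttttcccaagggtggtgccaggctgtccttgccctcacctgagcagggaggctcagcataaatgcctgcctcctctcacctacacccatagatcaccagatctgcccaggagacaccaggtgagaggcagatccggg
Saa2: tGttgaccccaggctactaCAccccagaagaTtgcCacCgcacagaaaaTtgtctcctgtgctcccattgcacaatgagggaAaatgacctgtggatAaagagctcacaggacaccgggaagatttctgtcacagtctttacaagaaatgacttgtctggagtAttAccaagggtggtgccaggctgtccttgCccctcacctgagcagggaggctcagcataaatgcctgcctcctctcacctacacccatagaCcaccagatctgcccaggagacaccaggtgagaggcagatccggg

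Lcn2 encodes lipocalin 2, which keeps iron from bacteria by binding their siderophores. It had 5.85, 5.10 and 3.79 CPM in WT NC, 531, 938 and 652 CPM in KO 72, 75 and 79 and 138, 165 and 191 CPM in WT CCl4, so KO was highest, WT CCl4 lay between and WT NC was lowest. Its rise was 7.17 ± 0.33 on the log2 scale (SE; edgeR, adjusted p = 2.61e-05). Orm2, an orosomucoid that carries drugs and lipids in plasma, had 17.3, 18.9 and 11.2 CPM in WT NC, 1047, 598 and 1004 CPM in KO 72, 75 and 79 and 66.0, 132 and 154 CPM in WT CCl4. Its rise was 5.81 ± 0.43 (adjusted p = 0.000168), and its copy Orm1, with 709, 846 and 574 CPM in WT NC and 3187, 2127 and 2795 CPM in KO 72, 75 and 79, rose by 1.93. Serum amyloid P (Apcs) rose by 1.82, haptoglobin (Hp), which binds free haemoglobin, by 1.38 and the copper carrier ceruloplasmin (Cp) by 1.16. The call of Hp was lost without KO 79 or any WT NC library (adjusted p up to 0.0935) and that of Cp without WT NC 3 (0.0558). The fibrinogen chains Fga, Fgb and Fgg gave 0.12, 0.19 and 0.21 and did not pass the test, and C-reactive protein (Crp) gave -0.16. The 1 member that fell, the interleukin 6 receptor Il6ra, changed by -1.03, and its call was lost without KO 72, KO 79, WT NC 2 or WT NC 3.

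**Figure D1:**
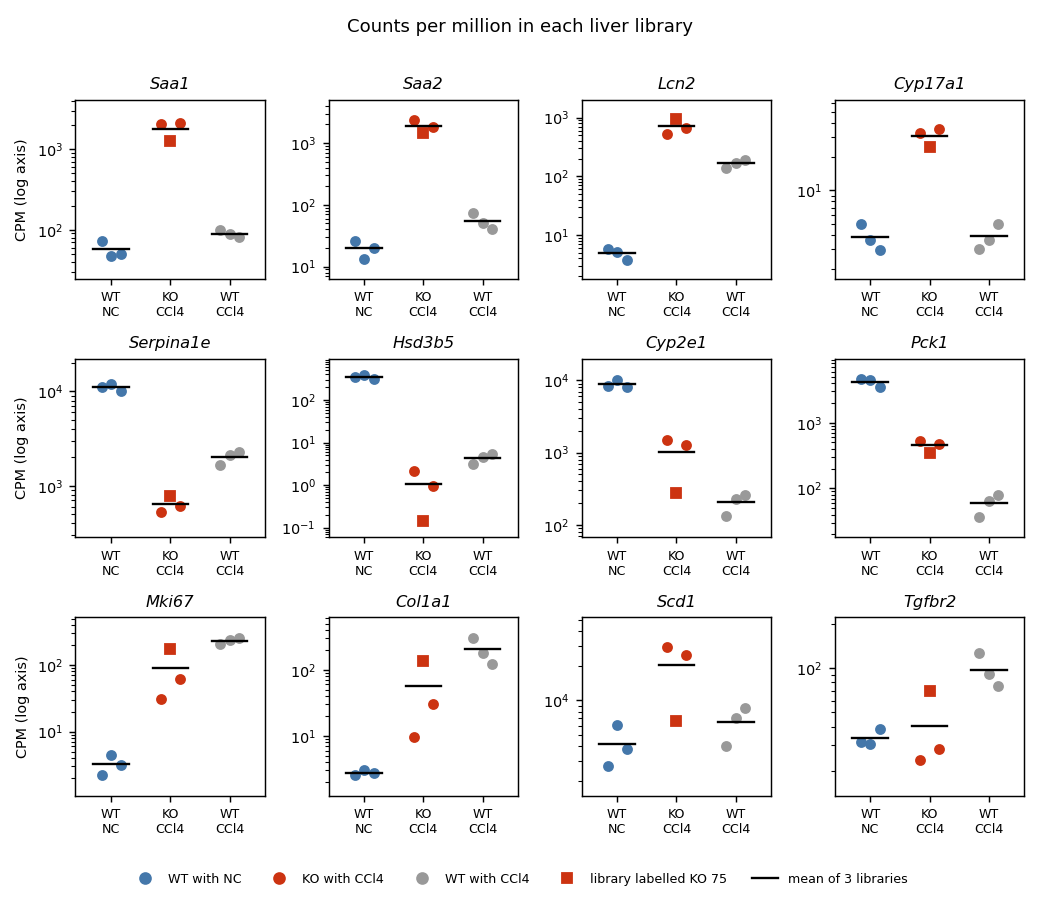
CPM of 12 genes in each library on log axes, in the groups WT NC, KO CCl4 and WT CCl4. Circles are libraries, the square is KO 75 and the black line is the mean of a group's 3 libraries; Saa1, Saa2, Lcn2 and Cyp17a1 are highest in KO, while for Mki67 and Col1a1 KO 75 sits far above KO 72.

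Genes of the circadian clock differed between KO and WT NC livers in both directions. Of 19 clock and output genes tested, 4 rose and 9 fell (median -1.06), and without KO 75 5 rose and 9 fell. The sources used here do not give the time of day at which livers were collected, so a difference in collection time and a difference between groups cannot be told apart for these genes. Dbp, a transcription factor that carries the clock's signal to its output genes, had 142, 147 and 119 CPM in WT NC, 2.15, 1.93 and 2.91 CPM in KO 72, 75 and 79 and 24.1, 19.2 and 14.7 CPM in WT CCl4. All KO libraries lay below all WT libraries, and the change from WT NC was -5.86 ± 0.27 on the log2 scale (SE; edgeR, adjusted p = 2.61e-05). Nr1d1 encodes REV-ERB alpha, the repressor of Arntl, and had 99.4, 132 and 56.5 CPM in WT NC, 1.01, 1.70 and 1.81 CPM in KO 72, 75 and 79 and 55.6, 23.5 and 10.3 CPM in WT CCl4. Its change was -5.97 ± 0.68 (adjusted p = 0.00128), and its partner Nr1d2, with 142, 138 and 138 CPM in WT NC and 14.8, 12.1 and 14.7 CPM in KO 72, 75 and 79, fell by 3.33. The repressors Ciart and Per3 changed in the same direction. Ciart had 18.5, 21.3 and 22.1 CPM in WT NC and 2.68, 1.74 and 1.87 CPM in KO 72, 75 and 79, a change of -3.30 ± 0.24 (adjusted p = 0.000147). Per3 had 32.1, 34.4 and 51.6 CPM in WT NC and 8.70, 3.54 and 8.19 CPM in KO 72, 75 and 79, a change of -2.54 ± 0.38 (adjusted p = 0.00398).

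The genes that rose were the activators Arntl, Clock and Npas2 and the repressor Cry1. Arntl, which encodes BMAL1, the partner of CLOCK, had 0.598, 1.52 and 0.693 CPM in WT NC, 27.5, 17.5 and 23.9 CPM in KO 72, 75 and 79 and 6.07, 5.04 and 4.16 CPM in WT CCl4. It was higher in KO by 4.62 ± 0.38 on the log2 scale (SE; edgeR, adjusted p = 0.000264), above every WT library. Clock itself had 28.0, 26.0 and 32.4 CPM in WT NC and 94.0, 75.8 and 88.9 CPM in KO 72, 75 and 79 and rose by 1.58 ± 0.16 (adjusted p = 0.000800). Cry1, a repressor that peaks late in the cycle, had 5.91, 5.72 and 7.84 CPM in WT NC and 38.3, 20.8 and 36.6 CPM in KO 72, 75 and 79 and rose by 2.29 ± 0.28 (adjusted p = 0.00155). Npas2, a relative of Clock, had 0, 0 and 0.320 CPM in WT NC and 1.61, 2.69 and 2.25 CPM in KO 72, 75 and 79, a change of 4.13 ± 1.01. All its WT NC counts lay in WT NC 3, and its call was lost without WT NC 1, WT NC 2 or KO 79 (adjusted p up to 0.0728). Per2 differed by 0.24 and did not pass the test, nor did Rora, Nfil3, Hlf or Bhlhe40, although Hlf was called without KO 72 or WT CCl4 11.

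The promoters of 3 of these genes are printed because each holds a different one of the elements through which clock proteins are known to act: the E-box CACGTG bound by BMAL1 with CLOCK, the D-box TTATGNAA bound by DBP and its relatives, and the ROR element TAGGTCA bound by REV-ERB and ROR proteins. They are RefSeq windows (GRCm38.p6) of the same span as above, Ciart on the minus strand at chr3:95882179-95882478, Per3 on the minus strand at chr4:151044616-151044915 and Arntl on the plus strand at chr7:113207261-113207560. Capitals mark 3 E-boxes in Ciart, 2 D-boxes in Per3 and 1 ROR element in Arntl, on either strand.
Ciart: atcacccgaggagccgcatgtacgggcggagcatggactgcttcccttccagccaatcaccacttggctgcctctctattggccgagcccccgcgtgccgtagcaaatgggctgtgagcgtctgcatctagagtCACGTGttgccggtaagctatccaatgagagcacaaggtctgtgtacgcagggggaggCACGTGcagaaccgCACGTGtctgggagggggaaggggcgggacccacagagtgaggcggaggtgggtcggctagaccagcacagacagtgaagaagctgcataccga
Per3: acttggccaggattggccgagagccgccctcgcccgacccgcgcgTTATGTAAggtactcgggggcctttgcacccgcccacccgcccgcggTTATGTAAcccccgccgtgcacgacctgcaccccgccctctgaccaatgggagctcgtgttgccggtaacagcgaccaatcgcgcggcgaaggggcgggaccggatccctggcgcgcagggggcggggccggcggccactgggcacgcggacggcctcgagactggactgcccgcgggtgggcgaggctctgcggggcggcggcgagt
Arntl: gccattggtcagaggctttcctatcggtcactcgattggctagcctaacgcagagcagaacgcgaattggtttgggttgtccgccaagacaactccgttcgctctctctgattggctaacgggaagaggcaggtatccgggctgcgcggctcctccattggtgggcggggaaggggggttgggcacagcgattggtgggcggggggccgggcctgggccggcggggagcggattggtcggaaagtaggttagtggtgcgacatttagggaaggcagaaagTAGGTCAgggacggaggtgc

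Both strands were searched. Among all 32851 promoter windows, 7.15% held the E-box, 3.38% the D-box and 2.61% the ROR element. By gene these shares were 8.09%, 3.99% and 2.97% of 27025. Of the 9 clock genes that fell, of which Per1 was not called without WT NC 2, WT NC 3 or KO 79 and Cry2 without KO 79 or any WT NC library, 4 held an E-box (Bhlhe41, Ciart, Per1 and Tef) and 2 a D-box (Per1 and Per3), and 0 held the ROR element. Of the 4 that rose, Cry1 held an E-box, Arntl held the ROR element and 0 held a D-box. A match describes these letters in this window, not a bound site.

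**Figure D2:**
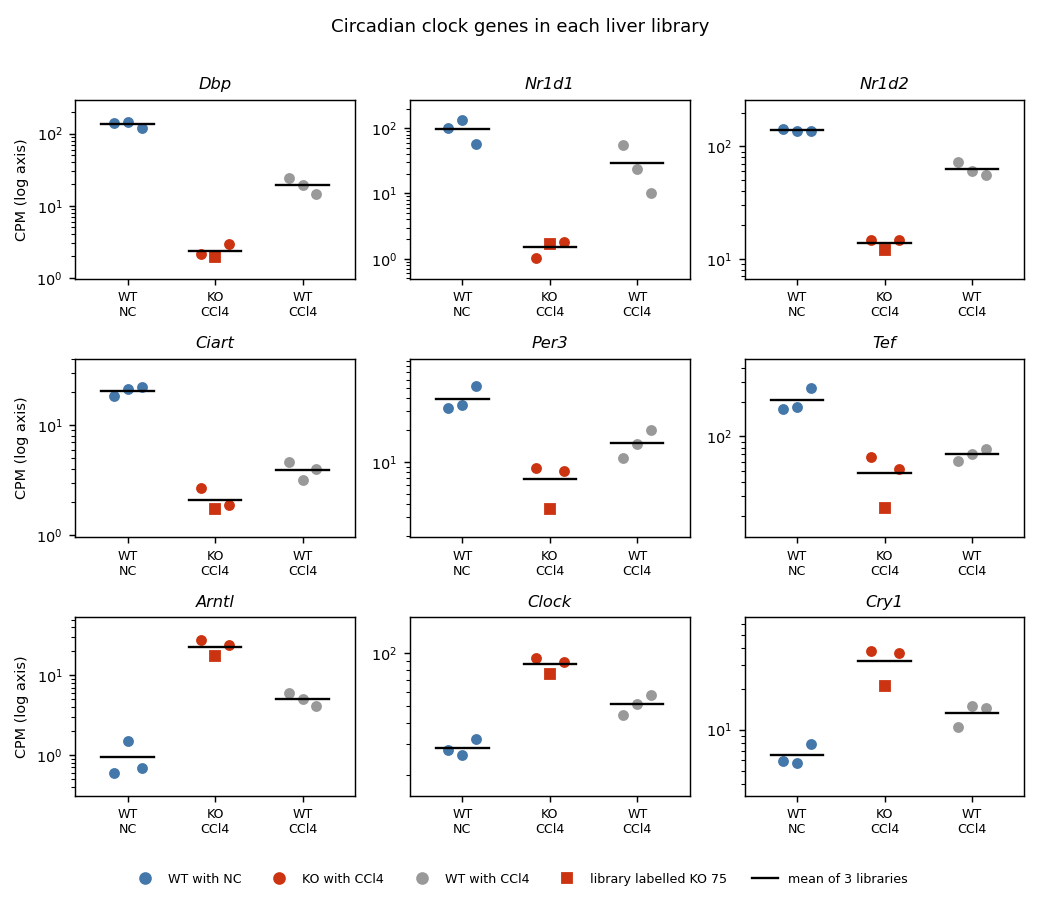
CPM of 9 clock genes in each library on log axes, by group; circles are libraries, squares KO 75 and lines the mean of 3 libraries. Dbp, Nr1d1, Nr1d2, Ciart, Per3 and Tef lie lower in every KO library than in every WT NC library, and Arntl, Clock and Cry1 higher.

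Among genes that differ between male and female mouse liver, most of the male-biased ones tested fell in KO livers. Many sex-biased genes follow the pattern of growth hormone pulses. Of 20 male-biased genes tested, 13 fell and 1 rose (median -2.58), and without KO 75 15 fell. Over all genes tested, 8.98% fell and 14.0% rose. In WT CCl4 against the same WT NC libraries 19 of the 20 fell (median -3.59), where 25.0% of all genes tested did. Of 17 female-biased genes listed, 10 passed the filter on low counts, and 6 of those rose with 0 falling. A gene that is low in male liver passes that filter only where it is high in another group, so this count describes the 10 and is not support for a change of the list. Hsd3b5, a male-biased enzyme of steroid metabolism, had 342, 394 and 307 CPM in WT NC, 2.15, 0.141 and 0.935 CPM in KO 72, 75 and 79 and 3.14, 4.54 and 5.42 CPM in WT CCl4. Both CCl4 groups lay far below WT NC, with a change of -8.37 ± 0.71 on the log2 scale in KO (SE; edgeR, adjusted p = 0.000352) and -9.36 without KO 72. The organic anion carrier Slco1a1 had 605, 608 and 629 CPM in WT NC and 57.6, 4.01 and 47.6 CPM in KO 72, 75 and 79 and changed by -4.08 ± 0.76 (adjusted p = 0.00852). Cyp7b1, a hydroxylase of oxysterols, had 488, 413 and 301 CPM in WT NC and 55.6, 11.4 and 49.9 CPM in KO 72, 75 and 79 and changed by -3.36 ± 0.54 (adjusted p = 0.00543). The male-biased gene that rose was the ferritin receptor Scara5 (1.72), and its call was lost without KO 79.

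Among female-biased genes, Cyp17a1, which makes androgen precursors, had 5.05, 3.65 and 2.99 CPM in WT NC, 32.5, 24.6 and 35.0 CPM in KO 72, 75 and 79 and 3.04, 3.65 and 5.05 CPM in WT CCl4. The KO libraries were above all 6 WT libraries, and the rise over WT NC was 2.98 ± 0.28 (SE; edgeR, adjusted p = 0.000512). A1bg, a plasma glycoprotein, had 0, 0.414 and 0 CPM in WT NC and 3.81, 3.39 and 5.06 CPM in KO 72, 75 and 79 and rose by 4.92 ± 1.08 (adjusted p = 0.0155). All its WT NC counts lay in WT NC 2, and the call was lost without WT NC 1 or WT NC 3 (adjusted p up to 0.0543). Bcl6 encodes a repressor that is higher in male mouse liver and is known to hold down female-biased genes. It had 70.2, 84.8 and 81.3 CPM in WT NC, 7.04, 9.14 and 9.46 CPM in KO 72, 75 and 79 and 21.5, 20.2 and 22.9 CPM in WT CCl4, below every WT library in all 3 KO libraries, and changed by -3.20 ± 0.17 (SE; edgeR, adjusted p = 3.05e-05). Of 18 genes of the growth hormone and IGF axis tested, 1 rose (Socs3) and 2 fell (Bcl6 and Igfbp2). These shares were below the 14.0% of all genes tested that rose and near the 8.98% that fell. The calls of Socs3 and Igfbp2 were each lost in some omissions. Rises numbered 0 without KO 79 or WT NC 1, 2 or 3, and falls 4 without KO 72 and 1 without KO 79, WT CCl4 12 or WT NC 1, 2 or 3. The growth hormone receptor Ghr gave -1.33 ± 0.47 (adjusted p = 0.0677) and Igf1 -0.54 ± 0.25 (adjusted p = 0.150), neither past the threshold, although Ghr was called without KO 72 or KO 75. The Y-linked genes Ddx3y, Eif2s3y, Kdm5d and Uty were present in all 9 libraries, at no less than 13.7 CPM, so the animals of both groups carried a Y chromosome.

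Genes of cell division rose in KO livers. Of 27 mitosis genes tested 26 rose and 0 fell (median 4.49), and the same number rose without KO 75 (median 3.13). In WT CCl4 against the same WT NC libraries 27 rose, with a median of 5.12, where 29.5% of all genes tested rose. Mki67, the standard marker of dividing cells, had 2.19, 4.41 and 3.09 CPM in WT NC, 30.4, 175 and 61.8 CPM in KO 72, 75 and 79 and 209, 234 and 256 CPM in WT CCl4. It rose by 4.79 ± 0.63 on the log2 scale (SE; edgeR, adjusted p = 0.00235), and by 3.84 without KO 75. Every KO library lay above every WT NC library, and KO 72 was lowest and KO 75 highest of the 3. Averaged over the mitosis list, log2 CPM stood 2.22, 5.08 and 3.30 above the WT NC mean in KO 72, 75 and 79. Top2a, which untangles chromosomes before they part, had 1.33, 2.76 and 2.24 CPM in WT NC and 19.4, 129 and 37.4 CPM in KO 72, 75 and 79 and rose by 4.87 ± 0.70, 3.75 without KO 75. Plk1, a mitotic kinase, rose by 5.31 ± 0.85, 4.12 without KO 75. Of 26 replication genes tested 16 rose and 1 fell (median 1.28), with 13 rising without KO 75, but 9 without WT NC 1 or 3 and 8 without WT NC 2. The gene that fell was Mcm10, which helps start replication forks, with 91.0, 104 and 98.6 CPM in WT NC and 21.5, 10.8 and 23.9 CPM in KO 72, 75 and 79, a change of -2.39 ± 0.27 (adjusted p = 0.00129).

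Of 25 p53 targets and cyclin-dependent kinase inhibitors tested, 8 rose and 0 fell, and the count was 5 without KO 75, 4 without KO 79, WT CCl4 12 or WT NC 1 or 2 and 3 without WT NC 3. Cdkn1a encodes p21, which blocks the cell cycle, and had 1.33, 0.965 and 0.587 CPM in WT NC and 35.8, 91.7 and 43.8 CPM in KO 72, 75 and 79. It rose by 5.91 ± 0.56 on the log2 scale (SE; edgeR, adjusted p = 0.000556), with every KO library above every WT NC library. Of 15 fetal and liver cancer genes listed, 11 passed the filter on low counts and 7 of those rose, and 3 without WT NC 1, 2 or 3. Such genes are low in adult liver and may pass only through a group where they are high, so the count describes the 11 and supports nothing about the list. Afp, alpha-fetoprotein, had 1.40, 1.31 and 0.907 CPM in WT NC and 1.61, 88.6 and 18.2 CPM in KO 72, 75 and 79 and changed by 4.91 ± 1.17 (adjusted p = 0.0200). KO 72 was close to WT NC for Afp, and the change was 3.05 without KO 75. Gpc3, glypican 3, changed by 5.43 ± 1.32 (adjusted p = 0.0213), 4.75 without WT NC 3 and 3.31 without KO 75. Both lost their calls without any WT NC library, with adjusted p up to 0.0744 and 0.0732.

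Collagen and matrix genes were higher in KO than in WT NC, with a wide spread between KO libraries. Of 20 collagen genes tested 13 rose and 0 fell (median 2.11), and in WT CCl4 against the same WT NC libraries 14 rose and 2 fell (median 2.98). Over all genes tested, 29.5% rose and 25.0% fell in WT CCl4. The number that rose was 8 without KO 75, 7 without WT CCl4 12 and 4 without WT NC 1, 2 or 3. Col1a1, the main chain of scar collagen, had 2.52, 3.03 and 2.72 CPM in WT NC, 9.48, 133 and 30.1 CPM in KO 72, 75 and 79 and 304, 181 and 123 CPM in WT CCl4. It was above WT NC in all KO libraries, highest in KO 75 and lowest in KO 72, and rose by 4.38 ± 0.89 on the log2 scale (SE; edgeR, adjusted p = 0.0115). Without KO 75 the change was 2.85 (adjusted p = 0.00691), and without WT NC 1 the adjusted p was 0.0510. Col4a1, a chain of basement membrane collagen, had 25.1, 19.7 and 21.2 CPM in WT NC and 63.5, 175 and 75.7 CPM in KO 72, 75 and 79 and rose by 2.25 ± 0.36 (adjusted p = 0.00502), 1.66 without KO 75. Serpinh1, the chaperone that folds collagen, had 6.71, 3.79 and 5.17 CPM in WT NC and 23.5, 53.8 and 31.9 CPM in KO 72, 75 and 79 and rose by 2.80 ± 0.35 (adjusted p = 0.00187). Of 37 matrix, cross-linking and protease genes tested 20 rose and 0 fell, and the count was 12 without KO 75, 10 without WT NC 1 and 7 without WT NC 2 or 3. The protease inhibitor Timp1 had 0.266, 0 and 0.320 CPM in WT NC and 1.07, 2.92 and 1.76 CPM in KO 72, 75 and 79, a change of 3.21 ± 0.84 (adjusted p = 0.0274), which lost its call without KO 75, KO 79 or any WT NC library. Acta2, smooth muscle actin of activated stellate cells, had 4.25, 3.31 and 0.960 CPM in WT NC and 2.56, 8.15 and 3.52 CPM in KO 72, 75 and 79 and gave 0.76 ± 0.55 (adjusted p = 0.331), within the spread of the libraries.

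Among the parts of the TGF-beta pathway, 6 of 22 ligands, receptors and SMADs tested rose and 0 fell (Eng, Lrrc32, Ltbp1, Ski, Tgfb1 and Tgfb3), but the count was 2 without KO 75, 3 without WT CCl4 12, 1 without WT NC 1 and 0 without WT NC 2 or 3. Over all genes tested, 14.0% rose and 8.98% fell. The ligand Tgfb1 had 6.84, 4.96 and 5.65 CPM in WT NC and 10.4, 32.9 and 12.9 CPM in KO 72, 75 and 79, a change of 1.69 ± 0.46 (adjusted p = 0.0301), 1.00 without KO 75, and its call was lost without KO 75 or any WT NC library. Smad7, the pathway's feedback inhibitor and a direct target, had 9.83, 8.34 and 14.0 CPM in WT NC and 12.3, 21.0 and 16.4 CPM in KO 72, 75 and 79 and gave 0.62 ± 0.26 (adjusted p = 0.111), short of the threshold. Of 19 known TGF-beta targets tested 6 rose and 1 fell, with rises of 3 without WT NC 1 or 3 and 2 without WT NC 2. Cyr61, a secreted matrix protein, rose by 1.61 ± 0.26 (SE; edgeR, adjusted p = 0.00523). The target that fell was Nox4, an oxidase that makes hydrogen peroxide, with 99.8, 94.5 and 95.1 CPM in WT NC and 24.7, 5.99 and 18.6 CPM in KO 72, 75 and 79, a change of -2.55 ± 0.48 (adjusted p = 0.00844). All 3 KO libraries lay below WT NC for Nox4, KO 75 lowest.

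Genes of the related BMP pathway, which controls iron through hepcidin, rose in 6 of 20 tested and fell in 0, with 3 without WT NC 1 or 2. Over all genes tested, 14.0% rose and 8.98% fell. Id3, an inhibitor of differentiation factors and a direct BMP target, had 29.4, 20.2 and 34.4 CPM in WT NC and 133, 115 and 138 CPM in KO 72, 75 and 79 and rose by 2.20 ± 0.28 (SE; edgeR, adjusted p = 0.00220). The 3 KO libraries were close to each other for Id3, KO 75 included. Bmper, a secreted binder of BMPs, had 0.266, 0.276 and 0.107 CPM in WT NC and 6.68, 9.80 and 6.43 CPM in KO 72, 75 and 79 and rose by 5.14 ± 0.41 (adjusted p = 0.000243). Hamp, hepcidin, had 318, 490.4 and 362 CPM in WT NC, 1013, 507 and 908 CPM in KO 72, 75 and 79 and 140.3, 193 and 218 CPM in WT CCl4. Its change of 1.05 ± 0.30 (adjusted p = 0.0362) lost its call without any WT NC library, WT CCl4 12, KO 72 or KO 79, where the adjusted p reached 0.120.

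Markers of several other cell types were higher in KO livers, with the highest sums in KO 75. Their part in the matrix, inflammation and cell division results was not tested. Summed over 12 Kupffer cell markers, the level was 904, 789 and 929 CPM in WT NC and 945, 3308 and 1386 CPM in KO 72, 75 and 79, so KO 72 lay close to WT NC. Of these 5 rose (Adgre1, Cd5l, Cd68, Csf1r and Marco), and the count was 9 without KO 72, 2 without KO 75, 3 without WT CCl4 12 and 1 without WT NC 1, 2 or 3. Marco, a scavenger receptor of resident macrophages, had 14.0, 11.7 and 13.0 CPM in WT NC and 81.3, 288 and 113 CPM in KO 72, 75 and 79 and rose by 3.64 ± 0.47 (SE; edgeR, adjusted p = 0.00220), 2.92 without KO 75. Adgre1, which encodes F4/80, had 17.1, 14.8 and 23.1 CPM in WT NC and 30.8, 204 and 68.3 CPM in KO 72, 75 and 79 and changed by 2.46 ± 0.65 (adjusted p = 0.0275), but by 1.43 with an adjusted p of 0.0553 without KO 75, and its call was also lost without any WT NC library. Of 16 monocyte and other myeloid markers 13 rose, with 9 without KO 75 and 5 without WT NC 1, 2 without WT NC 2 and 3 without WT NC 3. Their sum was 267, 197 and 197 CPM in WT NC and 295, 2057 and 632 CPM in KO 72, 75 and 79. Of 14 markers of lipid- and scar-associated macrophages 8 rose (5 without WT NC 2 and 3 without WT NC 3), while their sum, 6614, 7341 and 6585 CPM in WT NC and 5592, 7290 and 6085 CPM in KO 72, 75 and 79, overlapped between the groups. Gpnmb, a glycoprotein of such macrophages, had 0.332, 0.138 and 0.320 CPM in WT NC and 5.84, 659.9 and 125 CPM in KO 72, 75 and 79, the largest fitted rise among the genes named here at 9.91 ± 1.72 (adjusted p = 0.00677) and 7.89 without KO 75.

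Of 12 neutrophil markers listed, 10 passed the filter on low counts and 7 of those rose. Markers near 0 in WT NC pass it only through a group where they are high, so this count is a description, as are those of the other markers with few WT NC counts. Their sum was 4.52, 4.34 and 1.49 CPM in WT NC and 22.7, 35.8 and 25.5 CPM in KO 72, 75 and 79, with every KO library above every WT NC library. Of these markers Ngp and Mpo had 0 counts in WT NC. Ngp, a neutrophil granule protein, had 0 counts in the WT NC libraries and 4.29, 4.81 and 4.07 CPM in KO 72, 75 and 79, at least 71.1-fold higher against a floor of 3 counts over the group and at least 67.2-fold without KO 75. Lymphocyte markers rose in 5 of 18 tested (Gzma, Gzmb, Cd8a, Jchain and Ighm), with 3 without KO 75 or 79, WT CCl4 12 or WT NC 1 or 2 and 2 without WT NC 3, and summed to 19.8, 24.2 and 12.2 CPM in WT NC and 49.5, 81.9 and 56.9 CPM in KO 72, 75 and 79. The share of all genes tested that rose was 14.0%. Endothelial markers rose in 14 of 24 tested, with 6 without WT NC 1, 5 without WT NC 2 and 9 without WT NC 3. They summed to 502, 424 and 556 CPM in WT NC and 815, 1512 and 911 CPM in KO 72, 75 and 79. The hyaluronan receptor of sinusoidal cells Stab2 rose by 1.20 and the VEGF receptor Flt1 by 1.20.

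Stellate cell and myofibroblast markers summed to 351, 156 and 223 CPM in WT NC and 303, 1299 and 470 CPM in KO 72, 75 and 79, so KO 72 lay within the WT NC range and KO 75 far above it. Of 19 tested 5 rose (Col1a1, Des, Vim, Pdgfra and Tagln) and 1 fell, the tropomyosin Tpm2 (-1.45, and -2.07 without KO 75), a call lost in 6 omissions. Rises were 12 without KO 72 and 1 without KO 75 or 79, WT CCl4 12 or WT NC 1, 2 or 3. Bile duct markers rose in 2 of 12 tested, the keratins Krt8 (1.21 ± 0.24, SE; edgeR, adjusted p = 0.0107) and Krt18, which hepatocytes also express, near the 14.0% of all genes. Krt18 was not called without WT NC 2 or WT NC 3, where the count was 1. The list summed to 455, 439 and 382 CPM in WT NC and 675, 1431 and 797 CPM in KO 72, 75 and 79. Averaged over the list, log2 CPM stood -0.7, 0.62 and -0.19 from the WT NC mean in KO 72, 75 and 79. The higher sum thus does not describe every member. Markers of exocrine pancreas summed to 13.9, 16.8 and 19.5 CPM in WT NC and 45.7, 297 and 85.1 CPM in KO 72, 75 and 79, and 4 of 14 rose (Cel, Ctrb1, Pnlip and Try5), though 1 without KO 75 or 79 or WT CCl4 12, 11 without WT CCl4 13 and 0 without WT NC 1, 2 or 3. Of 11 mesothelium and adipose markers listed, 5 passed the filter on low counts and all 5 rose (Lrrn4, Msln, Upk1b, Upk3b and Wt1), and 1 without WT NC 1, 2 or 3. These 5 were near 0 in WT NC and passed through the groups where they were high, so the count supports nothing about the list. They summed to 0.266, 0 and 0.0533 CPM in WT NC and 3.81, 28.7 and 7.70 CPM in KO 72, 75 and 79. Upk3b, a mesothelial membrane protein, had 0 counts in WT NC and 1.67, 10.8 and 2.97 CPM in KO 72, 75 and 79, at least 89.1-fold higher against 3 counts over the group and at least 37.8-fold without KO 75. The part of such tissue in the results was not tested. Erythroid markers summed to 131, 181 and 131 CPM in WT NC and 66.7, 29.0 and 57.0 CPM in KO 72, 75 and 79, lower in every KO library than in every WT NC library. The members did not all share this, and their median log2 fold change was 0.03. Averaged over the list, log2 CPM stood -0.73, 1.3 and -0.58 from the WT NC mean in WT NC 1, 2 and 3. In KO 72, 75 and 79 it stood -0.44, 0.31 and -0.15 from that mean. Of 5 tested none passed the test with all libraries while 1 fell without KO 75.

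**Figure D3:**
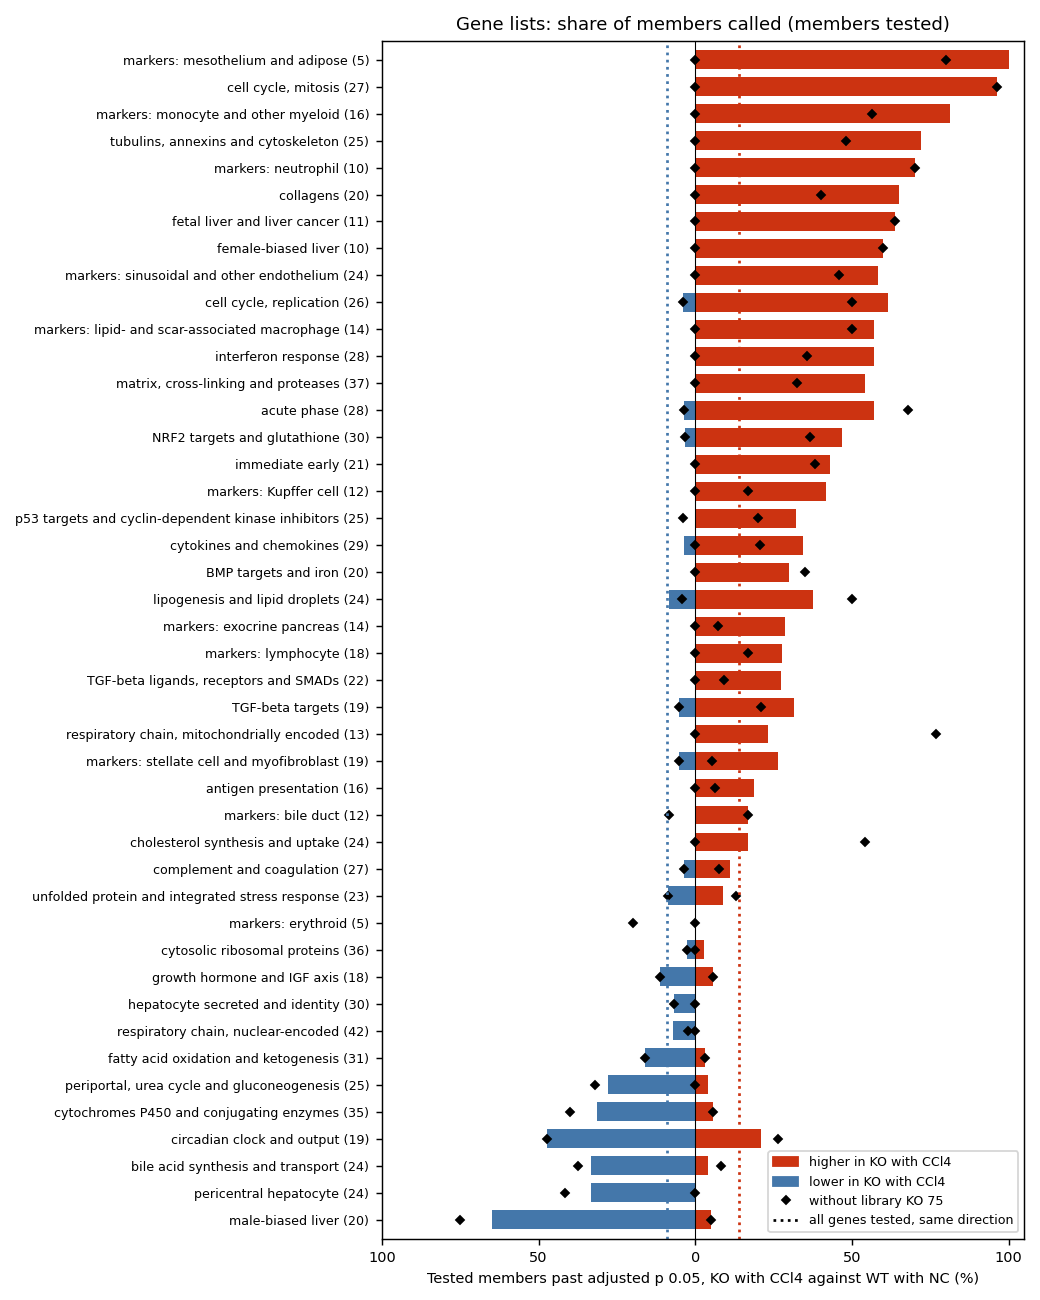
Percent of the tested members of each gene list that were called higher (red, to the right) or lower (blue, to the left) in KO with CCl4 than in WT NC. Diamonds give the same without KO 75. Dotted lines give the share of all genes tested with all libraries, 14.0% higher and 8.98% lower. Without KO 75, which the lines do not show, these shares were 9.93% and 7.37%. Mitosis, acute phase and myeloid lists extend far past the line on the higher side and the male-biased list on the lower side.

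Immediate early, cytokine and interferon response genes stood, on average over each list, above WT NC in all 3 KO libraries. Members without WT NC counts, such as Egr2, Il6 and Il10, passed the filter only through groups where they were high, so these averages are descriptions. Summed CPM of the cytokine list overlapped, with 468, 409 and 436 in WT NC and 446, 787 and 513 in KO 72, 75 and 79. The sums of the immediate early and interferon lists did not overlap. Of 21 immediate early genes tested 9 rose and 0 fell, 6 to 10 as each library was left out. Fos, a component of the AP-1 transcription factor, had 4.58, 9.65 and 1.17 CPM in WT NC and 134, 261 and 157 CPM in KO 72, 75 and 79, and rose by 5.17 ± 0.69 (SE; edgeR, adjusted p = 0.00251), 6.01 without WT NC 2. Averaged over the list, log2 CPM stood 2.02, 2.47 and 2.08 above the WT NC mean in KO 72, 75 and 79. Of 29 cytokine and chemokine genes 10 rose and 1 fell. The count of rises was 6 without KO 75, 19 without WT CCl4 13 and 4 without WT NC 1, 2 or 3. Cxcl14, a chemokine of epithelia, rose by 3.09 ± 0.40 (adjusted p = 0.00221), and the cytokine that fell was Cxcl12, a ligand of chemokine receptors (-1.03 ± 0.32), a call lost without any KO library, any WT NC library or WT CCl4 12. Of 28 interferon response genes 16 rose and 0 fell, with 10 without KO 75, 9 without KO 79 or WT CCl4 12, 5 without WT NC 1, 3 without WT NC 2 and 4 without WT NC 3. Gbp2, a guanylate-binding protein, rose by 3.23 ± 0.55 (adjusted p = 0.00636), 2.54 without KO 75. Antigen presentation genes rose in 3 of 16 (Ciita, H2-D1 and H2-DMb1), near the share of all genes, and 1 without KO 75, WT CCl4 12 or WT NC 1, 2 or 3.

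NRF2 targets and glutathione genes, which defend against oxidants, rose in 14 of 30 tested and fell in 1, with rises of 11 without KO 75 and 7 without WT NC 1 or 2 and 6 without WT NC 3. Over all genes tested, 14.0% rose and 8.98% fell. Their sum, 6283, 5511 and 4383 CPM in WT NC and 3962, 9266 and 5628 CPM in KO 72, 75 and 79, overlapped between the groups. The list average of log2 CPM stood 0.51, 2.19 and 1.23 above the WT NC mean in KO 72, 75 and 79. G6pdx, which makes NADPH in the pentose phosphate pathway, had 3.32, 2.55 and 4.16 CPM in WT NC and 28.7, 55.5 and 32.1 CPM in KO 72, 75 and 79 and rose by 3.53 ± 0.36 (SE; edgeR, adjusted p = 0.000800). The member that fell, the epoxide hydrolase Ephx1, gave -0.85 ± 0.25, a call lost without any KO library, any WT NC library or WT CCl4 12. The metal-binding protein Mt2 rose by 3.20 ± 0.58 (adjusted p = 0.00778). Genes of the unfolded protein and integrated stress response were called in 4 of 23, 2 in each direction. These shares were below the 14.0% of all genes tested that rose and near the 8.98% that fell. Those that rose were Manf (0.80) and Creld2 (0.67), secreted and resident proteins of the endoplasmic reticulum, and the count was 0 without WT NC 1 and 1 without WT NC 2 or 3. Those that fell were Herpud1, a part of the machinery that degrades misfolded proteins (-2.44 ± 0.27, adjusted p = 0.00111), and the kinase-like regulator Trib3 (-2.57 ± 0.35). Tubulins, annexins and other cytoskeleton genes rose in 18 of 25, and in 10 without WT NC 1, 2 or 3. Tubb2a, a beta-tubulin, had 12.6, 14.0 and 17.3 CPM in WT NC, 189, 141 and 167 CPM in KO 72, 75 and 79 and 88.0, 92.5 and 94.7 CPM in WT CCl4. It rose by 3.50 ± 0.18 (SE; edgeR, adjusted p = 3.05e-05), with KO above all WT libraries.

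Of 30 genes of hepatocyte identity and secretion tested, 2 fell (Nr1i3 and Tdo2) and 0 rose (median -0.40), a share below the 8.98% of all genes, and Alb gave -0.15 ± 0.39 (edgeR, adjusted p = 0.798). In WT CCl4 against the same WT NC libraries 22 of the 30 fell, where 25.0% of all genes tested did (median -1.50). The list average of log2 CPM stood -0.19, -1.04 and -0.32 from the WT NC mean in KO 72, 75 and 79. In WT CCl4 11, 12 and 13 it stood -2.07, -1.4 and -1.24 from that mean, so KO 75 was lowest of the KO libraries and near WT CCl4 13. Pericentral genes, those of the cells around the central vein, fell in 8 of 24 (median -0.85) and rose in 0. The count was 5 without KO 79 or WT CCl4 12 and 4 without WT NC 1, 2 or 3. Cyp2e1, the enzyme that activates CCl4, had 8259, 10060 and 8160 CPM in WT NC, 1499, 279 and 1270 CPM in KO 72, 75 and 79 and 133, 224 and 258 CPM in WT CCl4. It changed by -3.12 ± 0.58 on the log2 scale (SE; adjusted p = 0.00826), and by -2.67 without KO 75, whose level was just above the highest WT CCl4 library. Glul, glutamine synthetase of the innermost pericentral cells, had 926, 1107 and 1052 CPM in WT NC and 421, 124 and 345 CPM in KO 72, 75 and 79. It changed by -1.79 ± 0.43 (adjusted p = 0.0208), and lost its call without any 1 of the WT NC libraries, with an adjusted p of up to 0.0646. Cyp2a5, which clears coumarins, had 1306, 1722 and 1718 CPM in WT NC and 236, 162 and 231 CPM in KO 72, 75 and 79 and changed by -2.92 ± 0.38 (adjusted p = 0.00224). Nr1i3, the nuclear receptor CAR that senses drugs, had 264, 328 and 380.4 CPM in WT NC and 81.4, 62.9 and 85.6 CPM in KO 72, 75 and 79 and changed by -2.08 ± 0.37 (adjusted p = 0.00754).

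Among periportal, urea cycle and gluconeogenic genes 7 of 25 fell and 1 rose, the glycine cleavage enzyme Gldc, whose call was lost in 7 of the 9 omissions. Pck1, the rate-limiting enzyme of gluconeogenesis, had 4621, 4459 and 3549 CPM in WT NC, 531, 349.6 and 479 CPM in KO 72, 75 and 79 and 36.8, 65.0 and 78.5 CPM in WT CCl4. KO lay between the WT groups without overlap, and the change from WT NC was -3.22 ± 0.33 (SE; edgeR, adjusted p = 0.000800). Cytochromes P450 and conjugating enzymes fell in 11 of 35 and rose in 2 (Cyp2a4 and Cyp2b10), with 14 falling without KO 75. Beside these counts and those of bile acid genes stand the 8.98% of all genes tested that fell and the 14.0% that rose. Bile acid genes fell in 8 of 24 and rose in 1, or 2 without KO 72 or 75. Abcg8, one partner in the transporter that secretes cholesterol into bile, had 112, 118 and 155 CPM in WT NC and 13.5, 37.0 and 20.9 CPM in KO 72, 75 and 79 and changed by -2.43 ± 0.34 (adjusted p = 0.00308). The member that rose with all libraries, Slc51b, a part of the basolateral bile acid exporter, gave 4.61 ± 0.81 (adjusted p = 0.00699), 3.78 without KO 75.

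Genes of fatty acid oxidation fell in 5 of 31 tested and rose in 1, with 8 falling without KO 72. Over all genes tested, 8.98% fell and 14.0% rose. The falls were Angptl4, Cpt1a, Eci2, Fabp1 and Vnn1, and the call of the fatty acid binding protein Fabp1 was lost in 5 omissions. In WT CCl4 against WT NC 28 of the 31 fell, where 25.0% of all genes tested did. The one that rose was Pdk4, which keeps pyruvate out of the citric acid cycle (2.67 ± 0.47, edgeR, adjusted p = 0.00692, and 3.36 without WT NC 2). Averaged over this list, log2 CPM lay -0.20, -1.71 and -0.37 from the WT NC mean in KO 72, 75 and 79, so KO 75 was the lowest. Nuclear genes of the respiratory chain were called in 3 of 42, all lower (Cox4i1, Ndufa1 and Ndufb3), a share below the 8.98% of all genes. The count was 1 without KO 75 or 79 or WT CCl4 12 and 0 without WT NC 1 or 2. The 13 mitochondrially encoded chains had a median of 0.74, with 3 called higher (mt-Co2, mt-Nd1 and mt-Nd5), 0 without KO 72 or 79, WT CCl4 12 or WT NC 1, 2 or 3 and 10 without KO 75. Ribosomal protein genes were called in 2 of 36, Rpl3 higher (0.60) and Rpl22 lower (-0.98), below the share of all genes in each direction. The call of Rpl3 was lost in 6 omissions. Complement and coagulation genes were called in 4 of 27. The 3 that rose were C1qa, C1qb and C1qc, which macrophages are known to make, and the 1 that fell was Klkb1, plasma prekallikrein, shares at or below the 14.0% and 8.98% of all genes. Rises numbered 0 without KO 79, WT CCl4 12 or WT NC 1, 2 or 3, and falls 3 without KO 72, 0 without KO 79 or WT NC 2 or 3 and 2 without WT CCl4 11 or 13.

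Genes of fat synthesis stood above WT NC in KO 72 and KO 79, but not on average in KO 75. Of 24 lipogenesis and lipid droplet genes tested 9 rose and 2 fell (median 0.66), and without KO 75 12 rose and 1 fell. The rises numbered 4 without KO 79, 1 without WT NC 1 or 2 and 3 without WT NC 3. Averaged over the list, log2 CPM stood 1.27, -0.03 and 1.16 from the WT NC mean in KO 72, 75 and 79. Scd1, the desaturase that makes oleate, had 2668, 6094 and 3769 CPM in WT NC and 29290, 6672 and 24650 CPM in KO 72, 75 and 79. It rose by 2.27 ± 0.59 (SE; edgeR, adjusted p = 0.0263), and by 2.69 without KO 75 (adjusted p = 0.00361), but its call was lost without KO 79 or any WT NC library (adjusted p up to 0.0971). Fasn, fatty acid synthase, had 159.5, 257 and 545 CPM in WT NC and 3839, 329.7 and 3083 CPM in KO 72, 75 and 79. KO 75 lay within the WT NC range for Fasn, and the change was 2.92 ± 0.82 (adjusted p = 0.0343), 3.53 without WT NC 3, with the call lost without KO 72, KO 79, WT CCl4 12 or any WT NC library. Pnpla3, a lipase of lipid droplets, had 0, 0.138 and 0.373 CPM in WT NC and 13.7, 7.82 and 11.9 CPM in KO 72, 75 and 79 and rose by 5.88 ± 0.67 (adjusted p = 0.00127), and KO 75 was above WT NC too. Most of its few WT NC counts lay in WT NC 3. The regulators Pparg (-1.43 ± 0.25) and Mlxipl, which encodes ChREBP (-1.28 ± 0.38), were the 2 that fell, and the call of Mlxipl was lost in 6 omissions.

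Cholesterol synthesis and uptake genes rose in 4 of 24 with all libraries (Lss, Mvd and Pmvk among them), near the 14.0% of all genes tested. Without KO 75, 13 of 24 rose, where 9.93% of all genes tested did. The count was 0 without KO 72, KO 79 or any WT NC library and 1 without WT CCl4 12 or 13. Log2 CPM averaged over the list stood 0.98, -0.62 and 0.83 from WT NC in KO 72, 75 and 79. KO 75 was thus on the other side of the WT NC mean from KO 72 and KO 79.

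**Figure D4:**
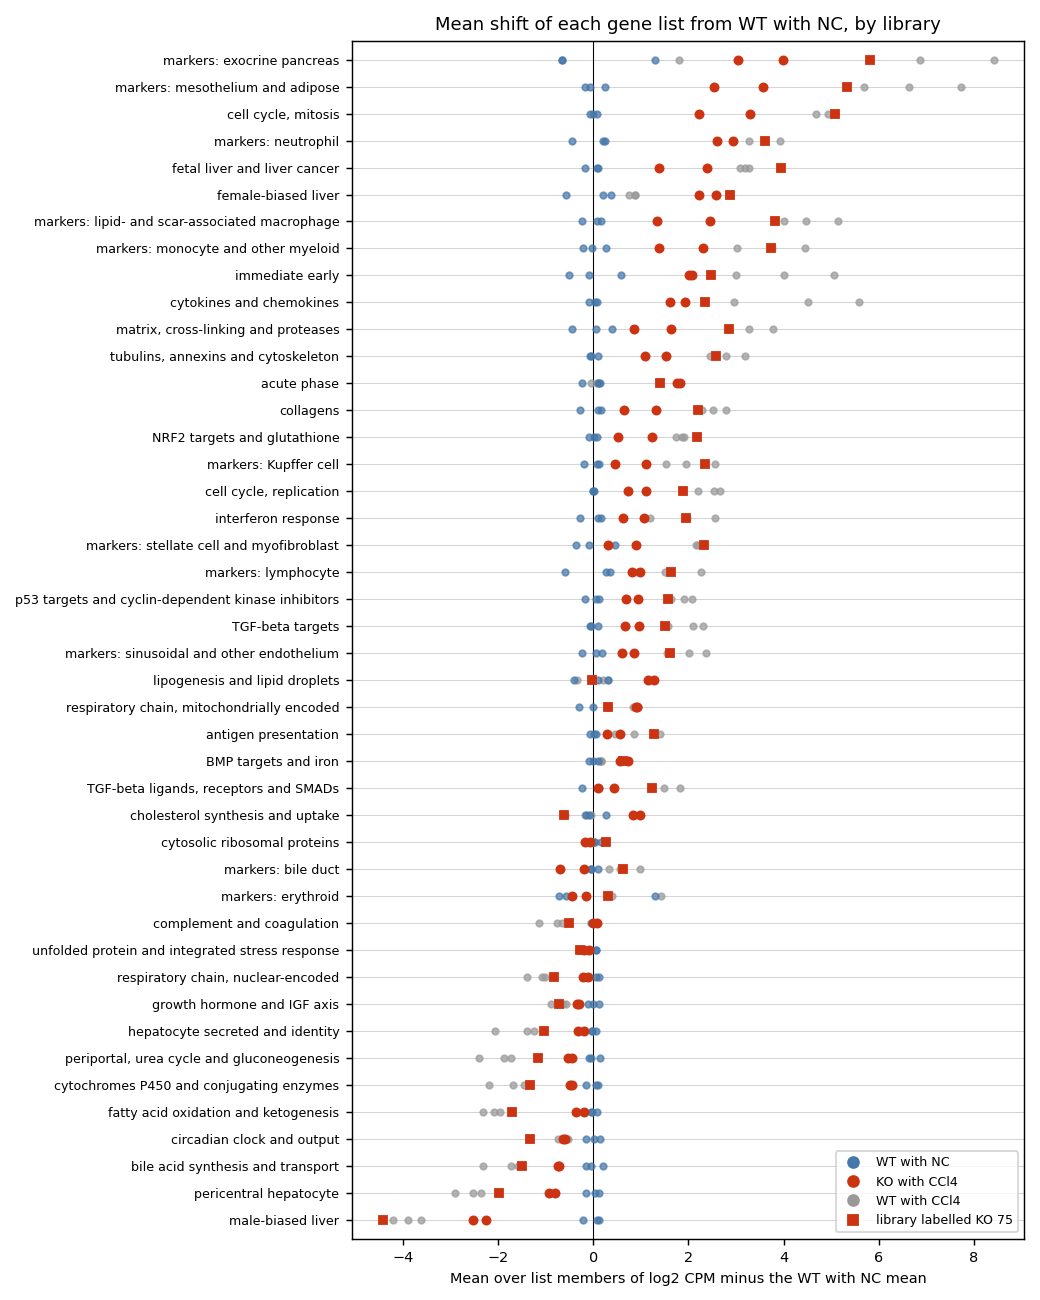
Mean over the members of each list of log2 CPM minus the WT NC mean, one point per library, by group, with KO 75 as a square. For lipogenesis and cholesterol synthesis KO 75 lies at -0.03 and -0.62 against 1.27 and 0.98 in KO 72; for acute phase genes the KO libraries lie at 1.41 to 1.82 and those of WT CCl4 at -0.04 to 0.12.

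The largest falls from WT NC, beside Hsd3b5, Nr1d1 and Dbp, were in metabolic and transport genes. Ugt2b38, a glucuronosyltransferase, had 82.1, 28.8 and 31.6 CPM in WT NC and 0.835, 0.0943 and 0.495 CPM in KO 72, 75 and 79 and changed by -6.68 ± 0.76 (SE; edgeR, adjusted p = 0.00127), -6.02 without WT NC 1 and -7.35 without KO 72. Fitm1, which promotes storage of fat in droplets, had 34.4, 51.3 and 33.5 CPM in WT NC and 0.536, 0.236 and 0.715 CPM in KO 72, 75 and 79 and changed by -6.33 ± 0.42 (adjusted p = 0.000117). Susd4, a membrane inhibitor of complement, had 39.5, 53.4 and 43.1 CPM in WT NC and 2.21, 0.236 and 0.990 CPM in KO 72, 75 and 79 and changed by -5.34 ± 0.64 (adjusted p = 0.00155), -6.23 without KO 72. The lectin Clec2h and the anion transporter Slc22a28 fell by 6.36 and 5.42, and Slc22a28 gave -6.43 without KO 72 and -4.79 without KO 75. Among the largest rises, several genes had almost no counts in WT NC, so the pooled ratio with its 95% counting interval is given. Chil3, the chitinase-like protein Ym1 of macrophages, had 0, 0.138 and 0 CPM in WT NC and 6.62, 36.2 and 13.6 CPM in KO 72, 75 and 79, a ratio of 485 (134 to 4010) and of 247 (68.0 to 2050) without KO 75. Sult1e1, oestrogen sulfotransferase, had 0, 0 and 0.0533 CPM in WT NC and 1.19, 20.1 and 3.90 CPM in KO 72, 75 and 79, a ratio of 445 (79.6 to 17600) and of 126 (22.0 to 5020) without KO 75. In KO 72 and KO 79 both were lower than in KO 75 but above every WT NC library. The steroid dehydrogenase Akr1c18 had 0.199, 0 and 0 CPM in WT NC and 3.10, 23.8 and 5.50 CPM in KO 72, 75 and 79, a ratio of 188 (64.1 to 914) and of 70.0 (23.5 to 343) without KO 75. The cell cycle phosphatase Cdkn3 had 0.133, 0 and 0 CPM in WT NC and 1.13, 15.2 and 2.58 CPM in KO 72, 75 and 79, a ratio of 167 (45.9 to 1380) and of 45.6 (12.1 to 384) without KO 75. In all 4 the KO 75 library was the highest. Ctrb1, a digestive enzyme of the pancreas, had 0, 0 and 0.267 CPM in WT NC, 8.82, 61.1 and 15.9 CPM in KO 72, 75 and 79 and 368, 108 and 2.95 CPM in WT CCl4, and its call was lost without any WT NC library, with a change of 8.04 ± 2.02 (adjusted p = 0.0236) and 6.82 without KO 75. All its WT NC counts lay in WT NC 3.

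For 68 genes called higher and 15 called lower, all 3 KO libraries lay on 1 side of all 6 WT libraries and KO also differed from WT CCl4 in that direction, with the filters of the naming rule. These values describe the choice and are not a test. Among the rises, beside Lcn2, Saa2 and Orm2, were Ly6d and Ntrk2. Ly6d, a small membrane-anchored protein, had 0.797, 1.10 and 0.640 CPM in WT NC, 39.5, 112 and 49.3 CPM in KO 72, 75 and 79 and 13.7, 19.6 and 20.4 CPM in WT CCl4 and rose by 6.31 ± 0.49 over WT NC, 5.72 without KO 75. Ntrk2, the receptor of brain-derived neurotrophic factor, had 0.332, 0.690 and 0.373 CPM in WT NC, 19.1, 13.3 and 20.4 CPM in KO 72, 75 and 79 and 6.58, 9.73 and 6.37 CPM in WT CCl4 and rose by 5.24 ± 0.36. Among the falls, beside Nr1d1, Dbp, Nr1d2 and Bcl6, were Serpina1e and Bhlhe41. Serpina1e, a copy of alpha-1-antitrypsin, had 11230, 11890 and 10180 CPM in WT NC, 532, 781 and 607 CPM in KO 72, 75 and 79 and 1669, 2114 and 2300 CPM in WT CCl4. It changed by -4.12 ± 0.29 on the log2 scale (SE; edgeR, adjusted p = 0.000132), and since it has near-identical copies, its value alone is uncertain. Bhlhe41, a repressor of the clock, had 8.90, 12.1 and 7.04 CPM in WT NC, 1.55, 0.566 and 1.93 CPM in KO 72, 75 and 79 and 9.92, 4.74 and 3.79 CPM in WT CCl4.

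In 9 genes that passed the same filters, KO and WT CCl4 were called in opposite directions against the shared WT NC libraries. Cyp2b10, a drug-metabolising P450 that CAR induces, had 1.13, 5.38 and 4.53 CPM in WT NC, 14.6, 13.2 and 14.5 CPM in KO 72, 75 and 79 and 1.11, 1.63 and 1.53 CPM in WT CCl4. It rose in KO by 1.93 ± 0.46 (SE; edgeR, adjusted p = 0.0193), a call lost without WT NC 3. Insig2, which holds the sterol sensor in the endoplasmic reticulum, had 77.4, 98.9 and 59.7 CPM in WT NC, 151, 165 and 162 CPM in KO 72, 75 and 79 and 24.6, 37.5 and 46.1 CPM in WT CCl4. Its change in KO was 1.02 ± 0.25 (adjusted p = 0.0221), lost without WT NC 1, WT NC 3 or KO 79. Wdfy1, an endosomal protein, had 11.1, 9.86 and 12.2 CPM in WT NC, 5.01, 5.89 and 5.66 CPM in KO 72, 75 and 79 and 17.9, 16.5 and 15.1 CPM in WT CCl4 and was lower in KO than in WT NC (adjusted p = 0.00593). Hamp2, the second hepcidin gene, gave 1.55 ± 0.41, a call lost in 5 omissions. Slc22a4, the ergothioneine transporter, gave -1.92 ± 0.47, a call lost without KO 75 or any WT NC library.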

How the data were processed

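The table deposited by the authors holds, per the file headers, a raw read count and an FPKM value for each gene and sample. The submitters' processing notes name HISAT2 2.0.4, StringTie 1.3.0 and the builds mm10 and GRCm38.p4. The sources used here do not name the counting tool, its strand setting or its rule for reads that fit several genes, so values of near-identical copies and of overlapping or antisense genes are uncertain. The table lists 34745 genes, 14141 without a count. Samples were placed by their titles.

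Counts were tested with edgeR 4.0.16 in R 4.3.3 by the quasi-likelihood test, with TMM normalisation, filterByExpr (14134 genes kept) and a mean per group over all 9 libraries, and p-values were adjusted by Benjamini-Hochberg over all genes tested and called below 0.05. The spread between libraries, as a biological coefficient of variation, came to 0.312. SE is the log2 fold change divided by the square root of the F statistic. Members of a list were averaged on log2 CPM with a prior count of 2. Figures and tables used Python 3.11.15. The script was tested on simulated counts. Ratios of groups with 1 to 3 pooled counts carry exact binomial 95% intervals; these and the floor of 3 counts (0.147 to 0.182 CPM in 1 library) account for counting error alone. Since no label states that replicates were separate animals, a p-value here reflects differences among these samples, which may be technical.

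The 44 gene lists, the members and the rule for named genes were chosen with earlier results of these data known. The rule took 14 genes whatever their values, the 8 largest rises and 8 largest falls, up to 3 called members per list and direction with the smallest p, the 6 largest rises and 6 largest falls outside the range of all WT libraries, and the 5 genes with the smallest p among those whose calls in KO and WT CCl4 were opposite. Rises and falls had to average 5 CPM or more in the higher group without overlap of libraries, and predicted, immunoglobulin, T cell receptor and Mup genes were left out. Other members named in the text were chosen after their values were seen. Results of some genes in the rule or the lists are left out of the text. Alternatives were DESeq2 1.42.0 and its size factors, no filter, limma 3.58.1 on log2(FPKM + 1) and log2(FPKM + 0.1), a fit of 6 libraries, glmTreat against a fold change of 1.5, no mitochondrial genes and each library left out. Chosen after seeing the data were the list counts for each library left out, other than KO 75, and the ratios without KO 75 of genes with few WT NC counts. The WT CCl4 libraries enter the comparison through the shared estimate of spread and the normalisation.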

Additional observations from a re-analysis of the deposited data

How the results depend on the processing

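Of the 3247 genes called, 1978 higher and 1269 lower, leaving out each library in turn gave 1264 to 3679 called, 725 to 2394 higher and 539 to 1363 lower; the lowest counts came without a WT NC library. The glmTreat test against a fold change of 1.5 called 1214, 829 higher and 385 lower, fewer by its construction. Limma on log2(FPKM + 1) called 1711 with 696 higher, and on log2(FPKM + 0.1) 1117 were higher, and the cause was not tested. DESeq2 called 4486, 2762 higher and 1724 lower. The other settings, DESeq2's size factors, no filter, a fit of the 6 libraries compared and no mitochondrial genes, gave 2576 to 3243 calls. Of the 165 named genes 161 were called, and 106 of these were called in all 9 omissions of a library; 0 of the called genes changed direction under the settings that tested them. Tgfbr2, not called, went from 0.28 to -0.36 without KO 75. Calls of 45 named genes were lost under glmTreat, 33 under log2(FPKM + 1), 21 without KO 75 and 46 to 49 without a WT NC library. With 3 libraries a group and a spread of this size, a missed threshold at this depth does not show that a gene was unchanged. No paired analysis was possible because the groups compared share no replicate numbers.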
